A study of Mus musculus with 4 samples.

Results

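Smooth muscle cells of 2 stretches of the mouse thoracic aorta, the arch and the descending part, were compared in control mice. The cells came from droplet single-cell RNA libraries made with a 5′ kit, which counts unique molecular identifiers (UMIs, 1 for each captured transcript) per gene and cell. Control mice carried CNC-SMC-Cre and the R26-tdT reporter with no floxed Smad4 allele named, and cKO mice carried CNC-SMC-Cre, Smad4flox/flox and R26-tdT. All were 16 to 20 weeks old, and each genotype gave 1 arch and 1 descending library, so all groups share the driver and the reporter. The labels give neither the promoter of the Cre driver, nor the cells it reaches, nor the number of animals per library, and they describe no sort for the reporter.

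The cells were chosen by their own transcript counts, and levels of those genes are given below as description only. A smooth muscle cell was defined as a barcode with at least 500 genes, under 10% mitochondrial UMIs, at least 5 UMIs of Myh11, at least 20 UMIs of Acta2 and 0 UMIs of Ptprc, Pecam1 and Pdgfra. Myh11 is the smooth muscle myosin heavy chain and Acta2 is smooth muscle actin, while the absent genes mark leukocytes, endothelium and fibroblasts. The gate took 1845 of 8644 filtered barcodes of the control arch (21.3%) and 792 of 5206 of the control descending aorta (15.2%), 2637 cells of the 31081 barcodes in the series. These cells held 25726332 UMIs in the arch against 10384031 in the descending aorta, with medians of 13126 and 12565.5 UMIs per cell. Their median Myh11 count was 33 in the arch against 38.5 in the descending aorta, and their median Acta2 count was 350.0 and 264. The same gate gave 847 cKO arch and 983 cKO descending cells, which are used only for values set beside the control pair.

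The gate left out unequal shares of the cells that passed Myh11 and Acta2. Of 4023 such arch barcodes 45.9% remained, and of 1272 descending barcodes 62.3%. Pecam1 transcripts removed 1486 arch and 346 descending barcodes, and Pdgfra transcripts removed 1127 and 171. At the lower edge, 27 arch and 7 descending cells held exactly 5 Myh11 UMIs, and 28 and 10 barcodes with 4 met every other criterion. The control libraries shared 87 barcodes, 1 of them among gated cells. Y-linked transcripts were counted in the control arch only, with Ddx3y at 370 UMIs against 0, while Xist was counted in both (238 and 352 CPM, UMIs scaled to 1 common total in every library), so the regions also differ in sex make-up. Since each group is 1 library, no difference below has a replicate check, no test was possible, and intervals are at 95% and take in counting error alone. In such sums, a difference between fewer cells making a transcript and less transcript per cell shows only in the shares of cells given beside it.

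The aorta is built from smooth muscle of several embryonic sources. Neural crest cells supply most of the arch, and paraxial mesoderm supplies the descending aorta. Transcription factors that lay out the pharyngeal arches, the outflow tract and the head-to-tail axis, the Hox genes among them, are known to keep regional patterns in adult vessels. Smooth muscle also carries the contractile apparatus, lays down the elastic and collagenous matrix of the wall, and reads vasoactive signals through receptors and ion channels.

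Of 11257 genes with at least 100 UMIs in both regions together, 216 were at least 2-fold higher in the arch (1.92%) and 360 at least 2-fold lower (3.2%), together 5.12%. The measure is the log2 ratio of arch over descending CPM with 0.5 UMI added to each sum, so that 1 stands for a 2-fold higher and -1 for a 2-fold lower level in the arch. The median gene lay at -0.12, and scaling by median of ratios or by TMM moved every ratio up by 0.16 or 0.14. The counts of higher and lower genes were then 267 and 275 with the first and 260 and 282 with the second, so the excess of lower genes rests on the scaling. The counting interval of each gene called in either direction excluded 0. At least 16-fold differences were held by 20 genes that were higher and 10 that were lower. Fibroblasts, endothelial cells and leukocytes were gated from the same libraries. In at least 1 of these classes, 120 of the 216 higher and 133 of the 360 lower genes differed at least 2-fold in the same direction. A gene counted only where that class held at least 20 UMIs of it and its counting interval excluded 0, so sparse genes were missed. Many of the differences were thus also seen outside smooth muscle, but the matching share over all genes was not counted.

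**Figure D1:**
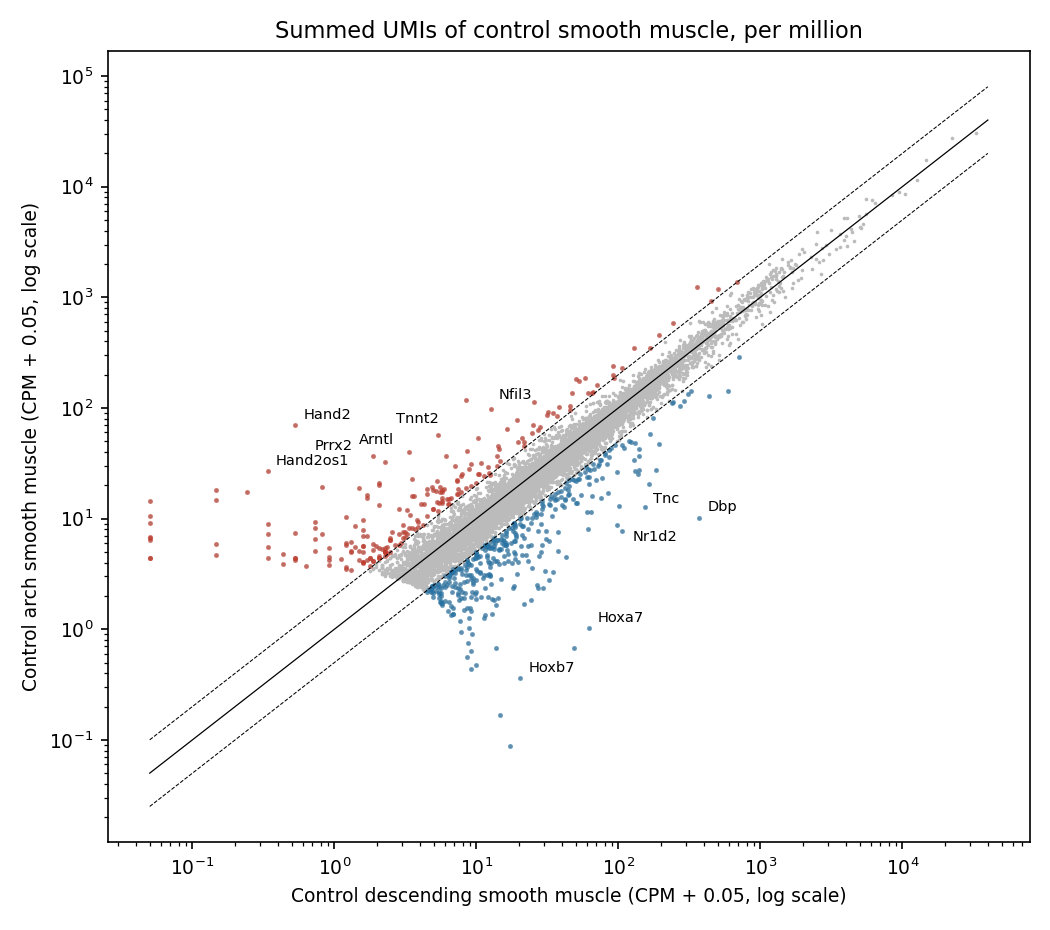
Each point is 1 of 11257 genes, with its CPM in control descending smooth muscle on the x axis and in control arch smooth muscle on the y axis, both on log scales after a small constant was added. Red points are the 216 genes at least 2-fold higher and blue points the 360 at least 2-fold lower in the arch, the dashed lines mark 2-fold, and Hand2 and Hoxa7 lie far from the diagonal on opposite sides.

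Hand2 was the gene furthest toward the arch among those with at least 200 UMIs and 20 CPM. It encodes a basic helix-loop-helix factor of the outflow tract and the neural crest-derived pharyngeal arches. Hand2 counted 1805 UMIs in the arch (70.2 CPM) and 5 in the descending aorta (0.482 CPM), a log2 ratio of 7.05 (5.96 to 8.81). At least 1 Hand2 UMI was seen in 48.2% of arch cells and 0.631% of descending cells. With every cell thinned to 5000 UMIs, the share was 26.1% of 1714 arch cells, and 0 of 707 descending cells, which allows a share of up to 0.424%. Thinned arch leukocytes, which should lack the gene, had a UMI in 0.893% of cells, so the share in arch smooth muscle lay above that background. Hand2 was also higher in arch fibroblasts, at 33.8 against 0.851 CPM.

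Hand2os1, a transcript on the opposite strand, was high in the same library. It counted 690 UMIs in the arch (26.8 CPM) and 3 in the descending aorta (0.289 CPM), a log2 ratio of 6.32 (4.98 to 8.82). In the annotation of GRCm38 Hand2 lies at chr8:57320983-57324633 on the plus strand and Hand2os1 at chr8:57281117-57324233 on the minus strand, so the genes overlap. The sources used here do not say whether the counting used strand, and reads of the overlap may not be told apart. In the cKO pair Hand2 stood at 62.9 against 0.881 CPM.

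The Hox genes showed the opposite polarity, and in the HoxA and HoxB clusters the difference began at paralogue group 5. Hox genes encode homeodomain factors whose order along each cluster matches the order of the body regions in which they are used. Hoxa7 counted 25 UMIs in the arch (0.972 CPM) and 644 in the descending aorta (62 CPM), a log2 ratio of -5.97 (-6.63 to -5.42). A Hoxa7 UMI was seen in 0.921% of arch and 46.7% of descending cells. Thinned to 5000 UMIs the shares were 0.408% and 27.6%. The shares of thinned leukocytes were 1.79% of 224 arch and 1.13% of 354 descending cells, so the share in arch smooth muscle was no higher than theirs. Whether the leukocyte UMIs are background or their own transcripts was not tested.

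The windows upstream of Hand2 and Hoxa7 are shown because these genes carry the regional split. They are the 250 bases before the RefSeq start in GRCm38.p6, read 5′ to 3′ on the gene's own strand. Hand2 lies at chr8:57320733-57320982 on the plus strand, and Hoxa7 at chr6:52218574-52218823 on the minus strand. Capitals mark GATAA or its reverse complement TTATC, the core of the motif read by GATA factors, which act with Hand2 in the outflow tract. The Hand2 window also lies inside the annotated span of Hand2os1.
Hand2: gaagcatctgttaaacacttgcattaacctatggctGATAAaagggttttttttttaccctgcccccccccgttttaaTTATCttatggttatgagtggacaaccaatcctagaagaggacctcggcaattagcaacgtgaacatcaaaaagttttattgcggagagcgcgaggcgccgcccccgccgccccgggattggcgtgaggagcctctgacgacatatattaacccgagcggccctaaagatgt
Hoxa7: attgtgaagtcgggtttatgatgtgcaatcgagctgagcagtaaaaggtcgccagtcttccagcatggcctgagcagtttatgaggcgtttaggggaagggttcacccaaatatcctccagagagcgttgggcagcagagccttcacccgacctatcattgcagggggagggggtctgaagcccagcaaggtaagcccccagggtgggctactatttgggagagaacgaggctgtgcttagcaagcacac
The motif occurs at 2 places in the Hand2 window and at 0 in the Hoxa7 window. It is common, being present in 22.6% of 32851 RefSeq windows of this length, so its presence here is a description only.

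Group by group, HoxA and HoxB genes of paralogue groups 1 to 4 were all within 2-fold between the regions. The furthest from even was Hoxa4, at 11.6 CPM in the arch against 6.84 in the descending aorta (0.76). Hoxa3 stood at 70.1 CPM in the arch against 47.9 in the descending aorta (log2 ratio 0.55), Hoxb2 at 31.3 and 33.6 (-0.10) and Hoxb4 at 15.8 and 23.1 (-0.55). Group 5 was intermediate. Hoxa5 was 6.80 CPM in the arch against 19.1 in the descending aorta, a ratio of -1.49 (-1.79 to -1.19). Hoxb5 was 5.56 and 22.9 CPM, a ratio of -2.04 (-2.35 to -1.74). The HoxA, HoxB and HoxC genes of groups 6 to 8 lay far toward the descending aorta. Hoxb6 counted 59 UMIs against 282 (-3.56), Hoxb7 counted 8 against 210 (-5.94) and Hoxc6 counted 3 against 152, with a ratio of -6.75 (-9.27 to -5.40). Hoxb8 counted 1 UMI against 179, a ratio of -8.21 (-14.10 to -6.30).

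Hoxc8 counted 0 UMIs in the arch against 84 in the descending aorta, at least 69.4-fold lower in the arch against a limit of 3 UMIs per library. Hoxa6 counted 0 and 27, at least 22.3-fold lower. The HoxC cluster was low in the arch from its first measured member on, with Hoxc4 at 3 against 42 UMIs. Hoxd4 went the other way, with 41 UMIs in the arch against 0 in the descending aorta. Any Hox gene of groups 6 to 9 was seen in 4.55% of arch cells and 76.0% of descending cells, or 2.28% and 53% after thinning. Only 2 arch cells and 1 descending cell held both Hand2 and Hoxa7. Of the 39 Hox genes 13 had at least 100 UMIs, of which 0 were at least 2-fold higher and 7 at least 2-fold lower in the arch, against 1.92% and 3.2% of all genes. Several of those 7 reached 100 UMIs only through the descending library, so this count describes them and supports nothing. The other 26 members held too few UMIs for a call, among them Hoxa9 at 2 against 14 and Hoxc9 at 0 against 13, and 9 were at 0 in both regions.

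**Figure D2:**
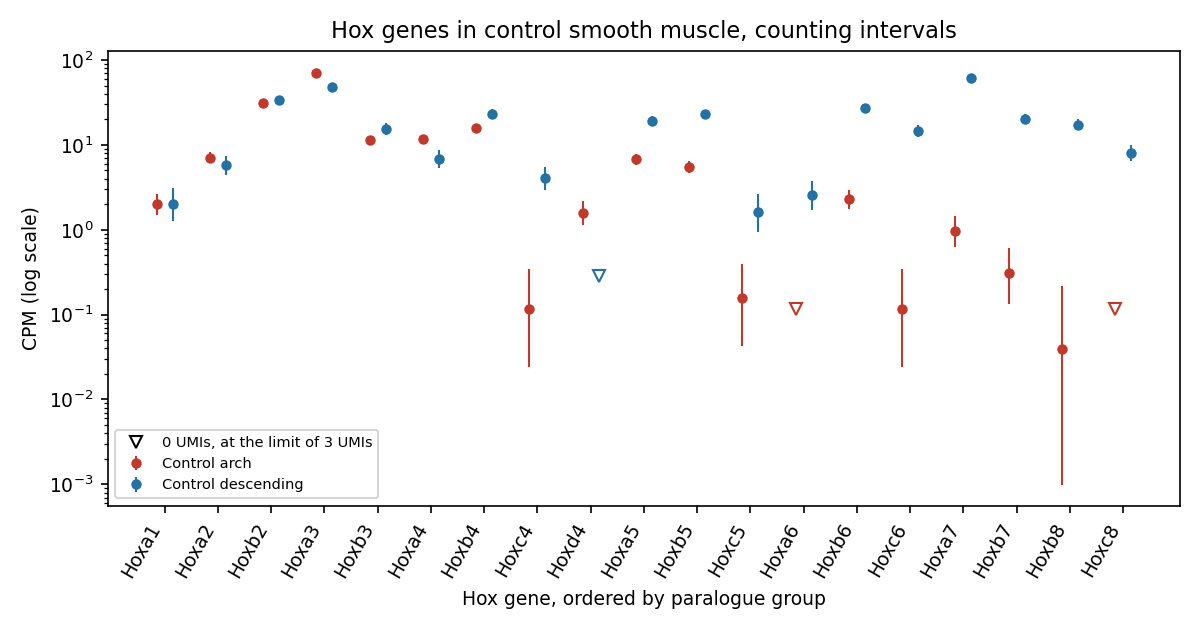
The y axis gives CPM on a log scale for each Hox gene with at least 20 UMIs, ordered along the x axis by paralogue group, in control arch (red) and control descending (blue) smooth muscle. Bars are 95% Poisson counting intervals and open triangles mark 0 UMIs at the limit of 3 UMIs per library, and the HoxA and HoxB genes separate from group 5 onward.

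Factors of the outflow tract and neural crest followed Hand2 in part. Of 34 measured factors on that list, 11 were at least 2-fold higher and 2 at least 2-fold lower in the arch. The shares of all genes were 1.92% and 3.2%, and the list median was 0.00 against -0.12 for all genes. Several of the 11 reached 100 UMIs only through the arch library, Dlx6 and Tfap2b among them. This count therefore describes them and supports nothing. Prrx2, a homeodomain factor of mesenchyme, counted 946 UMIs in the arch (36.8 CPM) and 19 in the descending aorta (1.83 CPM), a ratio of 4.29 (3.68 to 5.07). Sox9, the master factor of cartilage and of neural crest mesenchyme, counted 829 (32.2 CPM) and 23 (2.21 CPM), a ratio of 3.83 (3.27 to 4.53). Msx2, a homeodomain factor induced by BMP, counted 379 and 1, a ratio of 6.67 (4.77 to 12.56). The distal-less factors, which pattern the pharyngeal arches, went with it, with Dlx5 at 481 against 15 UMIs and Dlx6 at 175 against 0, at least 23.5-fold higher in the arch. Tfap2b, a neural crest factor, counted 111 against 0 UMIs, at least 14.9-fold higher.

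Other members of that list were nearer to even. The T-box factor Tbx20 was 16.7 CPM in the arch against 4.43 in the descending aorta (1.90). Gata6, a zinc finger factor of smooth muscle and the outflow tract, was 127 and 86.0 CPM (0.56). Tbx2 and Snai2 lay toward the descending aorta, with Tbx2 at 16.2 against 54.6 CPM (-1.76) and Snai2 at 5.95 against 15.1 CPM (-1.35). Prrx2 and Sox9 had higher levels in arch fibroblasts than in arch smooth muscle, at 50.3 and 69.5 CPM, and Prrx2 was near even between regions in fibroblasts (0.10).

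Within the arch, Prrx2 and several other genes were concentrated in a minority of cells. At least 1 UMI of Msx2, Dlx5 or Dlx6 was seen in 268 arch cells (14.5%) and in 15 descending cells (1.89%). In those 268 cells Prrx2 stood at 184 CPM, against 10.3 CPM in the other 1577 arch cells. Prss12, a secreted serine protease, stood at 111 against 3.76 CPM. Gdf10, a BMP-related ligand whose summed level was lower in the arch than in the descending aorta, stood at 99.5 against 8.53 CPM. With cells holding such a UMI left out of both regions, Prrx2 kept a ratio of 2.41 and Prss12 fell under 2-fold at 0.83. Hand2 was not concentrated there, and its ratio without these cells was 7.11.

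The cardiac-type thin filament genes Tnnt2 and Actc1 were also higher in the arch and uneven among its cells. Tnnt2, cardiac troponin T, counted 1462 UMIs in the arch (56.8 CPM) and 55 in the descending aorta (5.30 CPM), a ratio of 3.41 (3.04 to 3.84). A Tnnt2 UMI was seen in 16.4% of arch and 3.54% of descending cells, and thinned to 5000 UMIs in 11.1% and 2.12%. Thinned leukocytes had 1 in 3.57% and 1.13% of cells, so the arch share lay above its background while the descending share was close to that of leukocytes. Actc1, cardiac actin, counted 410 and 36 UMIs, a ratio of 2.18 (1.71 to 2.73). Within the arch, Actc1 was 56.7 CPM in the 302 cells with a Tnnt2 UMI and 6.64 CPM in the other 1543. Psd, an exchange factor for ARF6, was 69.7 and 9.55 CPM in the same cells. Other striated muscle genes did not follow: Pln, the phospholamban that restrains the calcium pump, was 15.2 CPM in the arch against 75.1 in the descending aorta (-2.30), and the myosin light chain Myl1 was 5.44 and 12.8 CPM (-1.24). The 8 cardiac muscle markers summed to 25.2 CPM in the arch against 20.9 in the descending aorta, with Nppa at 0 in the arch. Actc1 is a member of that list and made up 15.9 and 3.47 CPM of these sums. The other 7 markers all had negative ratios, among them the atrial light chain Myl4 at -1.0 and the myosin heavy chain Myh6 at -0.89. The thin filament members Tnnc1 and Tnni3 were among these 7, at -1.41 and -0.33, with too few UMIs for a call.

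The contractile apparatus differed little between the regions. Of 29 measured contractile genes, 0 were 2-fold higher and 0 were 2-fold lower, against 1.92% and 3.2% of all genes. Their median ratio of -0.07 turned positive under both other scalings. Acta2, part of the gate, was 27707 CPM in the arch against 22308 in the descending aorta (0.31), and Myh11, also part of the gate, was 2742 and 3406 (-0.31). The actin-binding protein Tagln stood at 17331 and 14781 CPM (0.23) and the calponin Cnn1 at 1894 and 1621 (0.22). The light chain Myl9 stood at 5606 and 5554 CPM (0.01) and the light chain kinase Mylk at 1205 and 1397 (-0.21). The members furthest from even were the enteric actin Actg2 at 415 against 272 CPM (0.61) and vinculin, Vcl, at 461 against 669 CPM (-0.53). Oxidative phosphorylation genes were near even too, with 63 genes measured, a median of 0.02, and 1 at least 2-fold lower (Cox7a1, at 2.29 against 18.1 CPM). Cox7a1 in smooth muscle was under 0.1 of the level in another cell class. It was also lower in arch fibroblasts (-2.57), endothelial cells (-2.85) and leukocytes (-1.86).

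**Figure D3:**
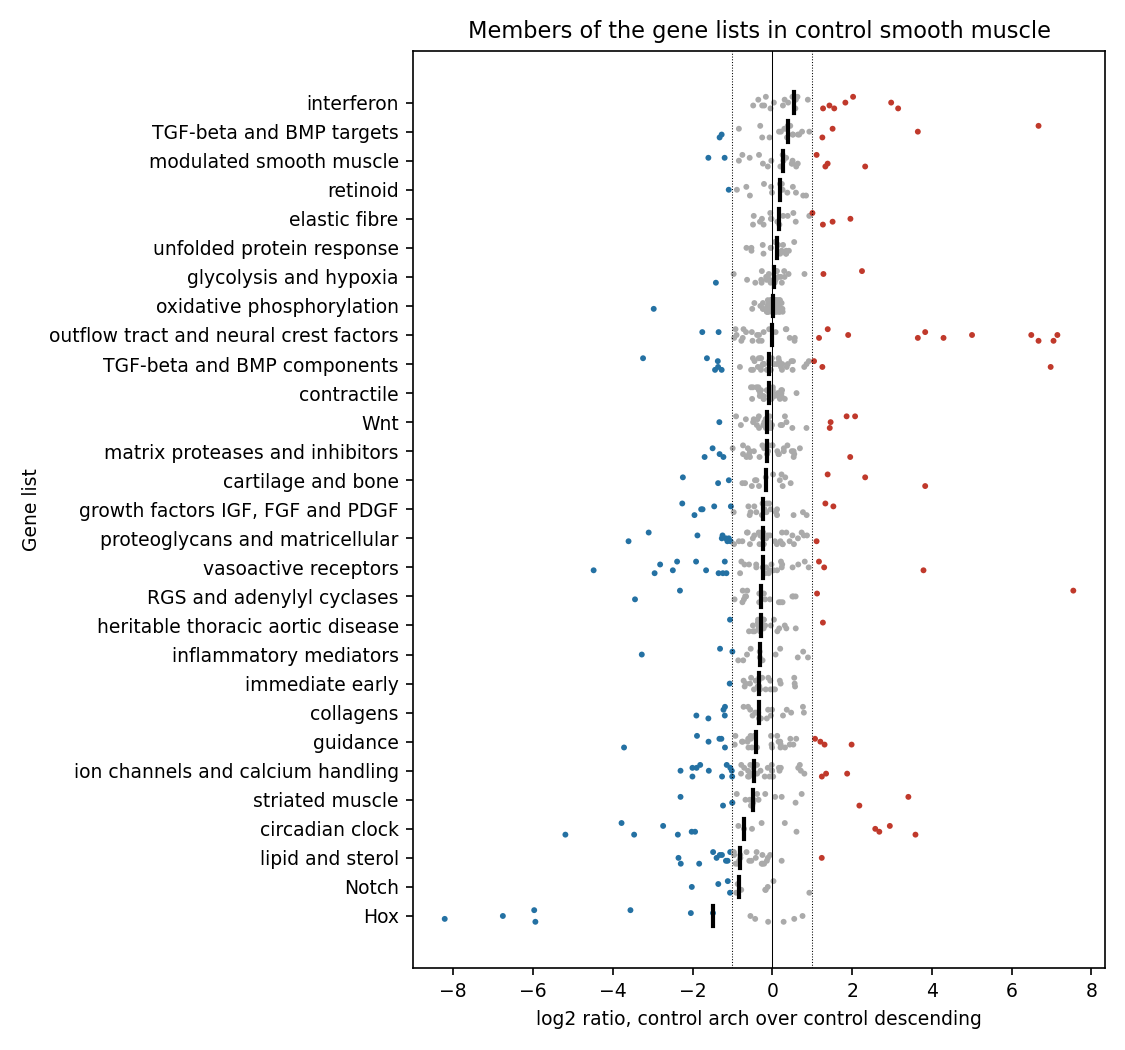
Each point is a measured member of a gene list, with its log2 ratio of control arch over control descending on the x axis, and lists with at least 10 measured members are ordered on the y axis by their median (black bar). Red and blue points are at least 2-fold higher and lower in the arch, and the contractile list stays within the dotted 2-fold lines while the Hox and Notch lists have the lowest medians.

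Most elastic fibre genes were within 2-fold between the regions, and those past it were higher in the arch. Of 19 measured, 4 were at least 2-fold higher and 0 at least 2-fold lower (1.92% and 3.2% of all genes), with a median of 0.18. Fbln1, a fibulin, was 63.8 CPM in the arch against 16.4 in the descending aorta, a ratio of 1.96 (1.73 to 2.20), which stood at 3.43 with likely doublets removed. Ltbp2, a fibrillin-binding protein, was 91.0 and 31.9 CPM (1.51), and the microfibril glycoprotein Mfap5 was 585 and 243 CPM (1.27). Mfap4 was 1375 and 685 CPM (1.01). Elastin, Eln, was 2904 and 4060.0 CPM (-0.48), and the fibrillin Fbn1 was 231 and 286 (-0.31). In the 268 arch cells with Msx2, Dlx5 or Dlx6, Mfap5 reached 1492 CPM against 422 in the other arch cells, and without such cells in either region Ltbp2 and Mfap5 fell to 0.94 and 0.78. The 12 fibroblast markers, of which Fbln1 and Mfap5 are members, summed to 2314 CPM in arch and 1461 CPM in descending smooth muscle, with 0 of them absent, and their part in these results was not tested.

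Most collagens and matricellular genes were within 2-fold, and those past it lay mainly toward the descending aorta. Of 24 measured collagens 0 were at least 2-fold higher and 5 at least 2-fold lower in the arch (1.92% and 3.2% of all genes), with a median of -0.34. Col6a3 was 133 CPM in the arch against 309.7 in the descending aorta (-1.22), and the major collagens differed less, with Col3a1 at -0.35 and Col1a1 at -0.30. Of 45 proteoglycan and matricellular genes 1 was at least 2-fold higher and 9 at least 2-fold lower, with a median of -0.23 against -0.12 for all genes. Tenascin C, Tnc, a matrix protein of strained and remodelling tissue, counted 323 UMIs in the arch (12.6 CPM) and 1587 in the descending aorta (153 CPM), a ratio of -3.60 (-3.78 to -3.43). Its UMIs were seen in 4.2% of thinned arch and 40.5% of thinned descending cells. The adhesive glycoprotein Thbs1 was 13.8 and 50.6 CPM (-1.88), and the matricellular Ccn4 was 1.59 and 13.8 CPM (-3.10). Its relatives Ccn1, Ccn2 and Ccn3 had ratios on the other side, 0.43, 0.64 and 0.50, all under 2-fold.

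Components of the TGF-beta and BMP pathways, which share Smad4 as the co-Smad, were mostly even, with the larger differences among ligands and extracellular inhibitors. Of 44 measured components 3 were at least 2-fold higher and 6 at least 2-fold lower (1.92% and 3.2% of all genes), with a median of -0.07 that turned positive under both other scalings. Among ligands, Bmp2 was 16.5 CPM in the arch against 44.7 in the descending aorta (-1.44) and Gdf10 was 22.4 and 69.7 (-1.64). Among secreted inhibitors, Vwc2, a secreted BMP binder, counted 468 UMIs in the arch against 1 in the descending aorta, a ratio of 6.98 (5.08 to 12.87). Sost, sclerostin, was 933 and 452 CPM (1.05). The receptor Tgfbr2 was 83.0 and 116 CPM (-0.49).

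Few targets of the pathways were past 2-fold. Of 23 measured targets of both branches 4 were at least 2-fold higher and 2 at least 2-fold lower (1.92% and 3.2% of all genes), with a median of 0.39. The inhibitory Smad6 was 58.9 and 24.7 CPM, a ratio of 1.25 (1.07 to 1.45). The inhibitors of differentiation, BMP targets, were all under 2-fold, at 0.68 for Id1, 0.17 for Id2, 0.30 for Id3 and 0.45 for Id4. Tgfbi, a target of TGF-beta, lay the other way at -1.27. Genes of heritable thoracic aortic disease were close to even, with 1 of 25 at least 2-fold higher (Mfap5), 1 at least 2-fold lower (Notch1) and a median of -0.29.

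Among vasoactive receptors and ion channels, more genes were called lower in the arch than higher. Of 35 measured receptors and their enzymes, 3 were at least 2-fold higher and 11 at least 2-fold lower (1.92% and 3.2% of all genes), with a median of -0.24. The angiotensin receptor Agtr1b counted 10 UMIs in the arch (0.389 CPM) and 94 in the descending aorta (9.05 CPM), a ratio of -4.48 (-5.65 to -3.60). The ATP-gated channel P2rx1 counted 335 (13 CPM) and 1046 (101 CPM), a ratio of -2.95 (-3.13 to -2.77). The odorant receptors Olfr78 and Olfr558 stood at -2.81 and -2.39, and 1 or the other was seen in 3.74% of arch and 12.9% of descending cells. The endothelin receptor Ednra was 19.8 and 45.2 CPM (-1.19). Toward the arch lay the lysophosphatidic acid receptor Lpar1, with 188 UMIs against 5 (3.79, 2.68 to 5.56), the adrenergic receptor Adra1b (1.30) and Ace, the angiotensin-converting enzyme, at 159.6 against 70.9 CPM (1.17).

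Of 46 measured ion channel and calcium handling genes 3 were at least 2-fold higher and 11 at least 2-fold lower in the arch, again against 1.92% and 3.2% of all genes, with a median of -0.47. The main voltage-gated calcium channel of smooth muscle, Cacna1c, was 35.9 CPM in the arch against 86.0 in the descending aorta, a ratio of -1.26 (-1.39 to -1.13). Its relative Cacna1d was 18.2 and 4.91 CPM, a ratio of 1.88 (1.47 to 2.34), so the L-type subunits lay on opposite sides. The T-type channel Cacna1h was 3.89 and 15.6 CPM (-2.00) and the potassium channel Kcnj12 was 2.06 and 8.28 (-2.00). Among cyclic nucleotide enzymes, the adenylyl cyclase Adcy1 was 2.45 and 26.8 CPM, a ratio of -3.44 (-3.87 to -3.05). The phosphodiesterase Pde1c counted 231 UMIs against 0, at least 31.1-fold higher in the arch. Markers that pericytes share with smooth muscle moved with these genes, the 7 of them summing to 974 CPM in the arch against 1307 in the descending aorta, and their part in the result was not tested.

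Among Notch genes the calls were all toward the descending aorta, and guidance and Wnt genes were mixed. Of 12 measured Notch genes 0 were at least 2-fold higher and 4 at least 2-fold lower (1.92% and 3.2% of all genes), with a median of -0.82. Notch3, the main Notch receptor of arterial smooth muscle, counted 1224 UMIs in the arch (47.6 CPM) and 2001 in the descending aorta (193 CPM), a ratio of -2.02 (-2.12 to -1.91). The targets Nrarp (-1.35) and Hes1 (-1.12) went the same way, although Hes1 was under 2-fold in 1 or more alternative settings (up to -0.93). The targets Heyl (-0.11) and Hey2 (-0.18) and the DNA-binding partner Rbpj (0.03) were near even, and Hey1 lay toward the arch (0.93). Of 36 guidance genes 4 were at least 2-fold higher and 6 at least 2-fold lower, against the same shares of all genes. The repulsive ligand Sema3a counted 42 and 225 UMIs, a ratio of -3.72 (-4.24 to -3.25), and the neurotrophin receptor Ntrk2 was 26.3 and 97.3 CPM (-1.89). Of 31 Wnt genes 4 were at least 2-fold higher and 1 at least 2-fold lower, the receptor Fzd4 at 23.9 against 60.1 CPM (-1.33). The higher genes act outside the cell: the secreted inhibitors Wif1 (183 against 50.4 CPM), Frzb (1.46) and Sfrp2 (1.44), and the agonist Rspo3 (29.8 against 7.03 CPM). Frzb and Sfrp2 were under 2-fold in at least 1 alternative setting, at 0.80 and 0.96.

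The remaining genes among the 12 lowest ratios are less tied to a list. Rergl, a Ras-related small GTPase enriched in smooth muscle, was 1.79 CPM in the arch against 24.3 in the descending aorta (-3.75). Pianp, a ligand of the inhibitory receptor PILR-alpha, was 3.27 and 34.5 CPM (-3.39), and it was lower in arch fibroblasts too (-3.97). Among the 12 highest, the mitochondrial carrier Slc25a34 was 53.1 and 10.2 CPM, a ratio of 2.37 (2.09 to 2.68).

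Genes of the circadian clock made up 4 of the 12 highest and 3 of the 12 lowest ratios. The clock is a loop in which Arntl with Clock or Npas2 activates the Per, Cry and Nr1d genes and the output factor Dbp, and the Nr1d proteins in turn repress Arntl. Of 17 measured clock genes 4 were at least 2-fold higher in the arch and 7 at least 2-fold lower (1.92% and 3.2% of all genes). Arntl counted 1028 UMIs in the arch (40.0 CPM) and 34 in the descending aorta (3.27 CPM), a ratio of 3.59 (3.12 to 4.15). Its partner Npas2 was 36.6 and 6.07 CPM (2.58), the repressor Cry1 was 22.5 and 3.47 CPM (2.68) and Nfil3, a repressor at D-boxes, was 96.8 and 12.5 CPM (2.95). In mouse tissues these genes are known to peak at neighbouring times of day.

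Clock genes of the opposite phase were low in the arch library. Dbp counted 261 UMIs in the arch (10.1 CPM) and 3844 in the descending aorta (370.2 CPM), a ratio of -5.19 (-5.38 to -5.01). Nr1d2 was 7.74 and 106 CPM (-3.78), Per3 was 8.78 and 97.1 CPM (-3.46) and Nr1d1 was 27.4 and 183 CPM (-2.74). The same genes differed in the other cells of these libraries: in fibroblasts Arntl stood at 2.88, Npas2 at 2.45, Dbp at -4.82 and Nr1d2 at -3.70, and in endothelial cells at 2.80, 3.02, -4.42 and -2.77. The time of day at which each animal was taken is not given in the labels, and region and collection time cannot be told apart. In the cKO pair Arntl was 1.05, Npas2 -0.22, Cry1 -0.91 and Dbp -1.23.

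**Figure D4:**
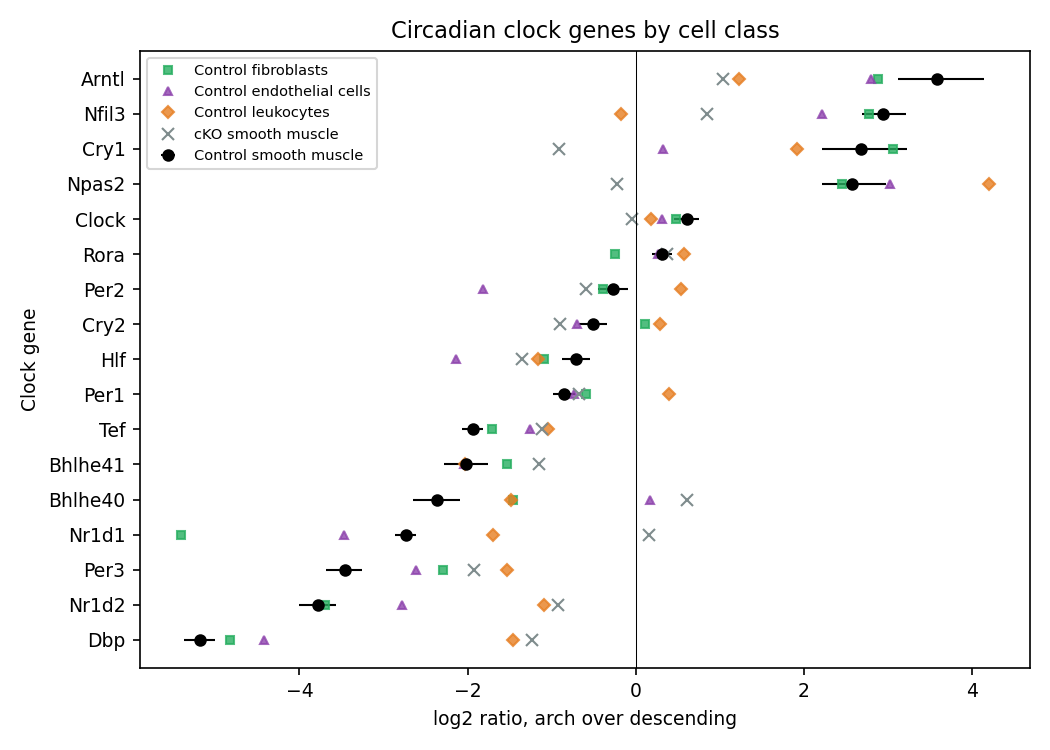
The x axis gives the log2 ratio of arch over descending for each measured clock gene on the y axis. Black points with counting intervals are control smooth muscle, coloured symbols are other cell classes of the same control libraries and crosses are cKO smooth muscle, and Dbp lies below -4 in control smooth muscle, fibroblasts and endothelial cells.

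Promoters are shown for clock genes of each side whose windows hold a textbook clock motif. The windows are the 250 bases before the RefSeq start in GRCm38.p6, on the minus strand for each gene, at chr4:151044666-151044915 for Per3, chr13:52981040-52981289 for Nfil3 and chr10:85185055-85185304 for Cry1. Capitals mark the D-box TTATGNAA or its reverse complement TTNCATAA in Per3, the ROR element TAGGTCA, as its reverse complement TGACCTA, in Nfil3, and the E-box CACGTG in Cry1.
Per3: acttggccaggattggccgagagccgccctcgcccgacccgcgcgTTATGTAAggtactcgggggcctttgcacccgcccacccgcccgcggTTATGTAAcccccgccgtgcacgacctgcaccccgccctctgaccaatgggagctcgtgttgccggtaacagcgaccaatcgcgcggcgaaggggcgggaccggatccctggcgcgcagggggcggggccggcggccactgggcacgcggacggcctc
Nfil3: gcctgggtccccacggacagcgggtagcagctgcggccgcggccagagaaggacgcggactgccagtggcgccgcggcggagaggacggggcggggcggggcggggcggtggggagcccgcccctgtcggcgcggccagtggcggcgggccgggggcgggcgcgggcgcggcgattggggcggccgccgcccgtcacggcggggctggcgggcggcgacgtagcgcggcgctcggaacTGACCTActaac
Cry1: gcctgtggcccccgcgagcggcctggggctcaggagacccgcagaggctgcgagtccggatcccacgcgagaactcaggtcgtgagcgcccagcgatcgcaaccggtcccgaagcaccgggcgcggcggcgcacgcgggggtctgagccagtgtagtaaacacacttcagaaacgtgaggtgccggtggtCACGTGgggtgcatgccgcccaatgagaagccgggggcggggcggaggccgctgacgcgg
Per3 holds 2 D-boxes, Nfil3 1 ROR element and Cry1 1 E-box, the motifs read by Dbp and Nfil3, by the Ror and Nr1d receptors, and by Arntl with its partners. The 16 clock genes with a window have 21 windows. In at least 1 of its windows, 5 genes hold the E-box, 2 the D-box and 1 the ROR element. Of all 32851 windows 6.02, 3.07 and 2.23% hold them, a share per window and not per gene, so the figures are not directly comparable. Dbp, Nr1d1 and Arntl hold none of these letters in this window.

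Some interferon-induced genes were higher in the arch. Of 22 measured, 7 were at least 2-fold higher and 0 at least 2-fold lower (1.92% and 3.2% of all genes), with a median of 0.54 and a lowest ratio of -0.48 for Irf1. Ifit1, an antiviral RNA-binding protein, counted 187 UMIs in arch smooth muscle (7.27 CPM) and 8 in descending (0.770 CPM), a ratio of 3.15 (2.23 to 4.47). The regulatory factor Irf7 was 5.64 and 1.54 CPM (1.83) and the ubiquitin-like modifier Isg15 was 31.5 and 10.7 CPM (1.55). In fibroblasts of the same libraries Ifit1 was 175 and 18.7 CPM (3.22), so smooth muscle held less than 0.1 of the level of another cell class. In endothelial cells the Ifit1 ratio was 0.87.

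Lipid and sterol genes were called lower in the arch more often than higher, beside more adipocyte transcripts in the descending library. Of 32 measured 1 was at least 2-fold higher and 10 at least 2-fold lower (1.92% and 3.2% of all genes), with a median of -0.82. The fatty acid synthase Fasn was 27.4 CPM in the arch against 139.7 in the descending aorta (-2.35), and the desaturase Scd1 was 26.6 and 131 CPM (-2.29). Adipocytes gated from the descending library held far more of both, Fasn at 2692 and Scd1 at 4764 CPM. The 6 adipocyte markers summed to 16.5 CPM in arch and 77.8 CPM in descending smooth muscle, and the control libraries held 7 and 75 gated adipocytes. The part of adipocyte RNA in these results was not tested.

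Markers of other cells were low but differed between the gated sets. The 10 endothelial markers summed to 278 CPM in arch and 534 CPM in descending smooth muscle, with 0 of them absent in the arch. Fabp4 made up 239 and 452 CPM of these sums, and Esam 28.1 and 67.6 CPM. The remaining endothelial markers held too few UMIs for a call. Of these, Cdh5 (0.35) and Tek (1.01) had positive ratios and the rest negative ones. The 16 leukocyte markers summed to 94.0 and 200.1 CPM, with Cd79a and S100a9 at 0 in the arch and Cd3e at 0 in the descending aorta. The 9 mesothelial markers summed to 77.7 and 56.6 CPM, the 6 Schwann cell markers to 6.69 and 6.64 CPM and the 8 thymocyte markers to 2.18 and 0.674 CPM, with Cd8b1, Rag1, Lck and Arpp21 at 0 in the descending aorta. Genes of these classes such as Lyz2, a macrophage lysozyme, followed them, at 16.1 against 64.7 CPM (-2.01).

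The same gate in the cKO mice gave a second pair of libraries, with no sample in common with the control pair. Of 10294 measured genes 280 were at least 2-fold higher (2.72%) and 645 at least 2-fold lower (6.27%) in the cKO arch. Of 10224 genes measured in both pairs, 57 were at least 2-fold higher in the arch in both, 47.1% of the 121 of the control pair and 24.6% of the 232 of the cKO pair. At least 2-fold lower in both were 154 genes, 52.2% of 295 and 24.1% of 640. Opposite calls were made for 2 of the control pair's higher and 13 of its lower genes. The cKO arch file was counted against another annotation and does not list Hand2os1.

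Many positional genes, but not all, had the same direction in the cKO pair. Hand2 stood at 6.09 there, Prrx2 at 2.70, Tnnt2 at 3.66, Hoxa7 at -3.85, Hoxb7 at -3.86 and Hoxb8 at -6.53. Sema3a (-3.32), Pianp (-3.59), Rergl (-5.62) and Notch3 (-2.63) also remained lower in the arch. Of 27 measured outflow tract and neural crest factors, 3 were at least 2-fold higher and 3 at least 2-fold lower in the cKO pair. The shares of all genes there were 2.72% and 6.27%. Foxf1 was 1.17 in the control and -0.14 in the cKO pair, and Twist2 was 1.39 and -0.50. Sox9, with several signalling and matrix genes, was near even there. Sox9 was 10.0 and 8.98 CPM in the cKO arch and descending aorta, a ratio of 0.16. Tnc was 114 and 97.5 CPM (0.22), Adcy1 was 92.8 and 64.1 CPM (0.53) and Vwc2 was 90.7 and 88.2 CPM (0.04). Whether the regional difference itself changed with genotype has no replicate check, since each of the 4 groups is 1 library.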

How the data were processed

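The deposited files hold raw UMI counts per gene and called cell barcode for 4 libraries, made by the authors with Cell Ranger 6.1.1 on mm10 per the submitters' processing notes, while the file headers name 6.1.2. The sources used here name neither the gene annotation nor the use of strand. UMIs of gated cells were summed per library and scaled to CPM by their total. For each log2 ratio 0.5 UMI was added to both sums. Intervals were exact conditional ones for ratios, Poisson ones for sums and Clopper-Pearson ones for shares, all at 95%. Intervals and limits (3 UMIs for a count of 0) cover counting error only. With 1 library per group no test was made. A gene was called at 2-fold where the libraries together held at least 100 UMIs. A list member could reach that minimum through 1 library alone, so the counts per list are descriptions only. Ratios were tested on simulated data with known folds.

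The barcode filter left 8644 of 9283 control arch and 5206 of 6351 control descending barcodes. Doublets were not removed, and removal was an alternative. For shares of cells, 1714 arch and 707 descending cells with at least 5000 UMIs were thinned to that depth, which left out 131 and 85. Fibroblasts, endothelial cells, leukocytes and adipocytes were gated on their markers in the same libraries (886, 412, 415 and 7 arch cells, 619, 552, 496 and 75 in the descending aorta). Files list 32285 genes, or 28693 for the cKO arch.

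The cells, the 38 gene lists and the naming rule were chosen with earlier results of these data known. The rule names the 12 highest and 12 lowest ratios among genes with at least 200 UMIs and 20 CPM, the 4 members of each list furthest from 0, Hox genes with at least 20 UMIs, and the first 6 contractile genes. It leaves out unnamed transcripts, mitochondrial, ribosomal, haemoglobin and sex-linked marker genes and those under 0.1 of the level in another class. Other list members are named as examples chosen after their values were seen. In all, 16 alternative settings were run, among them TMM scaling with edgeR 4.0.16 in R 4.3.3 and Scrublet in scanpy 1.11.5, with the rest in Python 3.11.15, scipy 1.17.1 and pandas 2.3.3. The promoter windows are from RefSeq. Some genes that the rule names are not reported here.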

Additional observations from a re-analysis of the deposited data

Results flagged for a closer look

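Named genes that were at least 2-fold apart between the regions in both genotypes, but in opposite directions, are given with their values; with 1 library per group the difference between genotypes was not tested. Col8a1, a short-chain collagen, was -1.60 in the control pair (6.18 CPM in the arch against 18.8 in the descending aorta) and 2.53 in the cKO pair (86.3 and 14.9 CPM). Rgs17, a regulator of G protein signalling, was -2.31 in the control pair (2.29 and 11.5 CPM) and 2.26 in the cKO pair (57.1 and 11.9 CPM). The complement gene C4b was -1.0 in the control pair (6.65 and 13.3 CPM) and 1.69 in the cKO pair (28.3 and 8.72 CPM). Its control ratio ran from -2.40 to -0.17 over 15 alternative settings and was past 2-fold in 8 of them. The leukocyte adaptor Tyrobp was -1.53 in the control pair (4.12 and 11.9 CPM) and 1.24 in the cKO pair (15.9 and 6.69 CPM). The mesothelial marker Msln was 1.09 in the control pair (8.28 and 3.85 CPM) and -1.57 in the cKO pair (5.97 and 17.8 CPM).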

How the results depend on the processing

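Across 16 alternative settings, of which 1 was added after seeing the data, 90 of 116 named genes that were at least 2-fold apart stayed so under every setting, 26 were under 2-fold in at least 1, and 1 changed sign: Msln went to -0.42 when at least 10 Myh11 and 40 Acta2 UMIs were asked for. The number of higher genes was 445 with at least 20 UMIs per gene, 1469 with at least 1, 89 with at least 500, and 336 when up to 2 UMIs of Ptprc, Pecam1 and Pdgfra were allowed, the added setting. The number of lower genes was 835, 2987 and 110 with the first 3 of these, and 224 when cells were thinned to 5000 UMIs before the gate. The first 3 settings change the number of genes tested to 13596, 19318 and 7664. The ratio of Hand2 ran from 6.19 to 7.21, of Hoxa7 from -6.19 to -5.74, of Dbp from -5.28 to -4.98, of Tnc from -3.84 to -3.45, of Notch3 from -2.12 to -1.81 and of Sox9 from 3.46 to 4.17. Prrx2 ran from 2.41, without cells holding Msx2, Dlx5 or Dlx6, to 5.32 with cells thinned before the gate. Fbln1 ran from 1.18 without the same cells to 3.74 when further markers of other cells also had to be absent, and was 3.43 with top Scrublet scores removed. Of 37 list medians 12 changed sign under some setting, among them those of the contractile, outflow tract, TGF-beta and BMP component, Wnt and oxidative phosphorylation lists. No paired analysis was possible because each group is 1 library, and for the same reason no replicate could be left out. Genes with few UMIs are limited by depth, the limit for a count of 0 being 3 UMIs per library.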
